A study of Mus musculus with 12 samples.

Results

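H4K12 acetylation was examined at 10 circadian clock genes out of 55413 annotated mouse genes. The genes were *Clock*, *Npas2*, *Arntl*, *Per1*, *Per2*, *Per3*, *Cry1*, *Cry2*, *Nr1d1* and *Dbp*. They were chosen by name as core components and outputs of the clock. For each gene, peaks in the 10 H4K12ac ChIP-Seq lists were read within 2 kb of the transcription start site (TSS) and in the gene body, and *Tip60* cKO mice were compared with control mice. None of the 10 genes differed between genotypes in peak strength at the TSS or in the gene body by more than the spread between mice allows to call. The share of the TSS window covered by peaks had a lower mean in *Tip60* cKO at all 10 genes, as it had at 81.0% of all genes. Of 138 acetylated regions at these genes 2 did not overlap between genotypes, both in *Cry2*, both higher in *Tip60* cKO and both at a higher input background in the 3 and 2 control lists that had a peak. Over all regions 0.783% were without overlap and higher, and 1.34% without overlap and lower.

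*Tip60* encodes a lysine acetyltransferase of histones, and H4K12ac is an acetylated lysine on the tail of histone H4 that marks active chromatin. Both groups were homozygous for the floxed allele (*Tip60* f/f) and received tamoxifen. The 5 *Tip60* cKO mice also carried the *CaMKCreERT2* driver, which acts in excitatory forebrain neurons after tamoxifen, whereas the 5 control mice lacked it. Nuclei of hippocampal neurons were sorted by FACS at day 10 after the last injection, so neurons without the driver, such as interneurons, can be part of both groups. The labels give male mice of strain C57BL/6J and an age of 3 months for all libraries, while the methods of the study describe C57BL/6N mice of either sex. The time of day at which tissue was collected is not given in the sources used here.

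The mammalian clock is a transcriptional feedback loop that runs in most cells, neurons of the hippocampus included. CLOCK, or its paralogue NPAS2, pairs with BMAL1, the product of *Arntl*, and activates genes through E-box sequences. Among these genes are the *Per* and *Cry* genes, whose proteins return to the nucleus and repress their own activators, as well as *Nr1d1*, which encodes REV-ERBα, a repressor of *Arntl* through RORE elements, and *Dbp*, a transcription factor that acts through D-boxes on output genes. Histone acetylation at several of these promoters is known to cycle over the day.

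The libraries held between 22864189 and 37923809 tags and between 64245 and 136409 peaks, and *Tip60* cKO mouse 5 was lowest in both. TSS peaks of the neuronal markers *Rbfox3*, *Snap25* and *Syt1* and of the excitatory markers *Slc17a7*, *Neurod6* and *Prox1* were present in all 10 lists. The interneuron genes *Gad1*, *Gad2* and *Slc32a1* had a TSS peak in 0, 1 and 2 lists, all of *Tip60* cKO. *Cldn5* and *Flt1* of the endothelium had one in 1 *Tip60* cKO list each. No list had a TSS peak at *Aqp4*, *Aldh1l1*, *Mog*, *Cx3cr1*, *Csf1r*, *C1qa* or *Pecam1*. The glial genes *Mbp* and *Gfap* had a TSS peak in 10 and 9 lists, and their part in the clock gene values was not tested. *Kat5*, the gene of TIP60, had a TSS rank score of 94.8 ± 5.07 in *Tip60* cKO and 97.6 ± 2.08 in controls (SD, n = 5). Acetylation at this TSS does not check the deletion.

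The promoters of 9 of the 10 genes were found in RefSeq (GRCm38.p6). Over the 250 bases before the start, 13 promoter entries of these genes had a median G+C content of 64.0% and a median of 20 CpGs, against 52.4% and 6 for all 32851 promoter entries. Both strands were searched for the E-box CACGTG, the D-box TTATGTAA, the RORE half-site AGGTCA and the cyclic AMP response element TGACGTCA. In this window the letters of the E-box occurred in 6.02% of all promoters, those of the D-box in 0.819%, those of the RORE half-site in 14.0% and those of the cyclic AMP response element in 1.55%. Among the clock genes an E-box was present at *Per1* and *Cry1*, and D-boxes at *Per3*, and a RORE half-site was present at *Per1* and in 1 entry of *Clock*. The 3 promoters are shown because they hold the letters bound by the clock's own activators and by DBP, with the motifs in capitals and all 5′ to 3′ on the strand of the gene. *Per1* is read on the plus strand at chr11:69098699-69098948, *Per3* on the minus strand at chr4:151044666-151044915 and *Cry1* on the minus strand at chr10:85185055-85185304.
*Per1*: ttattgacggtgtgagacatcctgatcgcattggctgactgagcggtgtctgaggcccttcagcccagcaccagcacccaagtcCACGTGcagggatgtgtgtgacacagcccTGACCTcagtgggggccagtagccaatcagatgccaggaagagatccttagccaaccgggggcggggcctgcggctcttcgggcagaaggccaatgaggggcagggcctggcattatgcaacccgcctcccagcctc
*Per3*: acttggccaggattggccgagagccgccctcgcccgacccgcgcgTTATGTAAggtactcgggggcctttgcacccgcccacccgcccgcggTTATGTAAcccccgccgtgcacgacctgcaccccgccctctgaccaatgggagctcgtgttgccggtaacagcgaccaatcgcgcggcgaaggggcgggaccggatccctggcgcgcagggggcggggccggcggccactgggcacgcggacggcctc
*Cry1*: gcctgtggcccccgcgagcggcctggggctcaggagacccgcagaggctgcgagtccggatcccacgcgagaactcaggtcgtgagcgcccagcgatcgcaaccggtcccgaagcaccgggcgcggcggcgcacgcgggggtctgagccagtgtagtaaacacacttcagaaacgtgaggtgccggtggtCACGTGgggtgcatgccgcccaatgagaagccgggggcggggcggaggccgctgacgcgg
The *Per1* stretch holds the E-box 166 bases before the RefSeq start and a RORE half-site on the opposite strand. The *Per3* stretch holds 2 D-boxes, which begin 205 and 158 bases before the start. The *Cry1* stretch holds an E-box 60 bases before the start. None of the 4 motifs was found in the entries of *Npas2*, *Arntl*, *Cry2*, *Nr1d1* and *Dbp* within these 250 bases.

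Peak strength at the TSS was expressed as a TSS rank score. The strongest peak by fold enrichment within 2 kb of the annotated 5′ end was ranked among all 55413 genes of the same library from 0 to 100, and a gene without a peak received 0. A gene with a peak scored at least 65.2 to 72.0, depending on the library. In control mice the order from the highest mean was *Dbp* (97.3), *Npas2* (95.5), *Clock* (92.8), *Arntl* (90.9), *Per2* (88.6), *Per3* (86.4), *Per1* (85.4), *Cry2* (75.0), *Nr1d1* (74.8) and *Cry1* (58.3). The control ranges of each gene and its next neighbour in this order overlapped. Among the 21672 genes with a TSS peak in at least 2 lists, 96.1% had a lower control mean than *Dbp* and 24.7% a lower one than *Cry1*.

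**Figure D1:**
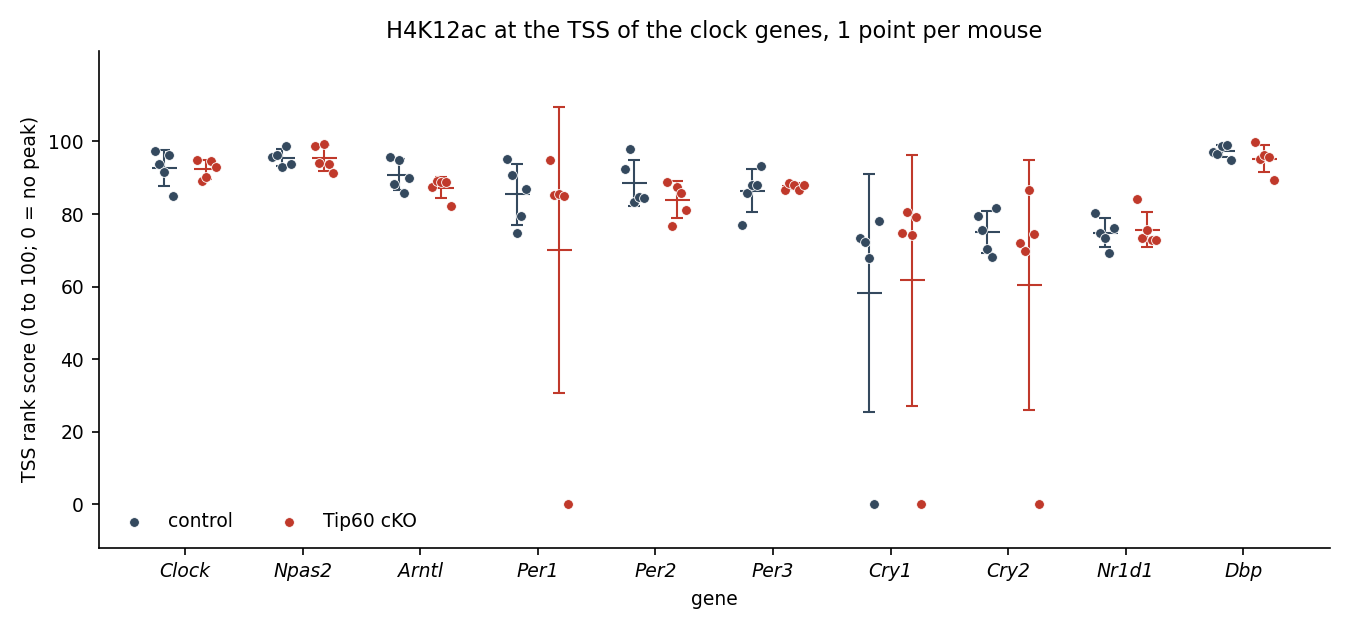
TSS rank score (0 to 100, 0 without a peak) of each clock gene in 5 control and 5 *Tip60* cKO mice, with 1 point per mouse and the mean with SD as line and bars. The groups overlap at all 10 genes, and the points at 0 belong to *Tip60* cKO mouse 5 at *Per1*, *Cry1* and *Cry2* and to control mouse 4 at *Cry1*.

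The 3 genes of the activating arm had strong TSS peaks in all 10 lists. *Clock* (chr5:76209868-76304792, minus strand) encodes the histone acetyltransferase-like partner of BMAL1. Coordinates of genes and peaks are those of mm10. The TSS rank score of *Clock* in mice 1 to 5 was 94.8, 89.1, 90.2, 94.6 and 93.1 in *Tip60* cKO and 97.5, 93.7, 91.6, 96.4 and 84.9 in control mice. The lowest of all 10 values was that of a control mouse. The start of an antisense transcript, *Gm7467*, lies 84 bp upstream, so this peak is shared by both. *Npas2* (chr1:39193731-39363236, plus strand), the paralogue of *Clock* that is expressed in the forebrain, scored 98.7, 94.1, 99.4, 93.7 and 91.3 in *Tip60* cKO and 95.6, 96.3, 92.9, 98.8 and 93.8 in control mice. The difference of -0.0639 ± 1.93 (SE) was close to 0. *Arntl* (chr7:113207465-113314126, plus strand), which encodes BMAL1, scored 87.6, 89.1, 88.9, 88.7 and 82.3 in *Tip60* cKO and 95.6, 88.3, 94.9, 85.7 and 89.9 in control mice. The difference of *Arntl* was -3.58 ± 2.98 (SE; limma adjusted p = 0.589), and the highest *Tip60* cKO value lay below that of 3 control mice. Without *Tip60* cKO mouse 5 the difference was -2.32.

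The *Per* genes encode the period proteins of the repressive arm. *Per2* (chr1:91415982-91459324, minus strand) scored 88.8, 76.6, 87.6, 85.7 and 81.0 in *Tip60* cKO and 92.4, 98.0, 83.2, 84.7 and 84.5 in control mice. Its difference of -4.63 ± 3.50 (SE) had the lowest adjusted p of the 10 genes (limma, adjusted p = 0.559), and was -2.79 without *Tip60* cKO mouse 2 and -2.26 without control mouse 2. *Per3* (chr4:151003652-151044665, minus strand) was the most even gene in *Tip60* cKO, at 86.7, 88.4, 88.1, 86.7 and 88.1, and ranged from 77.1 to 93.3 in control mice. *Per1* (chr11:69095217-69109960, plus strand) scored 94.8, 85.1, 85.4, 84.8 and 0 in *Tip60* cKO and 95.3, 90.7, 74.7, 79.5 and 87.0 in control mice. Only *Tip60* cKO mouse 5 had no peak, and the difference of -15.4 was 2.12 without this mouse. The annotated 5′ end of *Per1* belongs to a long transcript, and the RefSeq starts lie 3732 and 4935 bp downstream, outside the window. With the TSSs of all annotated transcripts every list had a peak at *Per1*, and the difference was 4.43 ± 3.82 (SE; limma adjusted p = 0.603).

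The cryptochromes, which block CLOCK and BMAL1 directly, were in the lower part of the order, with *Cry1* last. *Cry1* (chr10:85131700-85185064, minus strand) scored 74.7, 80.6, 74.3, 79.1 and 0 in *Tip60* cKO and 73.3, 72.2, 68.0, 0 and 78.2 in control mice. Each genotype thus had 1 list without a peak at *Cry1*, and these were the shortest lists of their groups. *Cry2* (chr2:92403646-92434043, minus strand) scored 71.9, 69.8, 86.7, 74.4 and 0 in *Tip60* cKO and 79.4, 75.5, 70.4, 68.1 and 81.7 in control mice. Without *Tip60* cKO mouse 5 the difference of *Cry2* went from -14.5 to 0.686.

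*Nr1d1* (chr11:98767932-98775333, minus strand) scored 84.2, 73.3, 75.5, 72.8 and 72.7 in *Tip60* cKO and 80.4, 74.7, 73.5, 69.3 and 76.3 in control mice, and the groups overlapped from 72.7 to 80.4. *Dbp* (chr7:45705088-45710203, plus strand) was among the strongest TSS peaks in the genome, with 99.8, 95.1, 96.2, 95.8 and 89.4 in *Tip60* cKO and 97.2, 96.6, 98.8, 99.1 and 94.9 in control mice. In all, 4 of 5 *Tip60* cKO mice were below 4 of 5 control mice at *Dbp*, and the difference was -2.07 ± 1.82 (SE; limma adjusted p = 0.612), which was -3.21 without *Tip60* cKO mouse 1 and -0.602 without *Tip60* cKO mouse 5.

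By limma none of the 10 genes passed an adjusted p of 0.05 in TSS rank score, and none had an unadjusted p below 0.05. Of all 21672 genes tested 0.397% passed, and 12.6% had an unadjusted p below 0.05. The genotypes overlapped at all 10 clock genes, against 1.93% of all genes without overlap and higher and 1.62% without overlap and lower in *Tip60* cKO. The difference was negative at 7 and positive at 3 clock genes, with a median of -1.27. Over all genes tested 55.6% were negative, with a median of -0.69. Without *Tip60* cKO mouse 5 the difference was negative at 4 of the 10 clock genes, and at 6 to 8 without each other mouse. Within the sequencing lanes the sign of the difference was the same in both lanes at *Arntl*, *Per2*, *Cry1* and *Dbp* and opposite at the other 6 genes.

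Fold enrichment of the strongest peak at the TSS, the height over the local background, reached 5.40 to 10.7-fold in *Tip60* cKO and 7.40 to 10.2-fold in control mice at *Dbp*. At *Nr1d1* it was 3.20 to 5.22-fold in *Tip60* cKO and 3.11 to 4.89-fold in controls. Fold enrichment relative to the library median, in log2, could be tested for the 7 genes with a TSS peak in all 10 lists. The mean was lower in *Tip60* cKO at 6 of them, with the lowest at *Per2* (-0.28), *Arntl* (-0.23) and *Dbp* (-0.18) and the only higher one at *Nr1d1* (0.05). With each mouse left out in turn the difference ranged from -0.34 to -0.14 at *Per2* (the latter without control mouse 2) and from -0.32 to -0.07 at *Dbp* (without *Tip60* cKO mice 1 and 5). None of the 7 passed a two-sided exact permutation test over 5 against 5 mice, which 15.5% of 13004 genes with a peak in all lists passed at 0.05, and the lowest p was that of *Arntl* (exact p = 0.135). The median over the 7 genes was -0.13, against -0.06 over all 13004 genes, of which 61.1% had a lower mean in *Tip60* cKO.

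The width of acetylation was measured as the share of the 4 kb around the TSS covered by peaks. Coverage in control mice was largest at *Dbp* (70.1% ± 12.8, SD, n = 5) and *Npas2* (58.0% ± 2.33) and smallest at *Cry1* (11.6% ± 9.85). Its mean was lower in *Tip60* cKO at all 10 genes, with a median difference of -9.54 percentage points, against -4.01 over all 21672 genes, of which 81.0% had a lower mean. Covered length depends on the number of peaks that a list holds. With the same number of strongest peaks from every list the mean was again lower at all 10 genes, with a median of -6.32 against -3.70 for all genes. Depth moves with this result, as library 5 of *Tip60* cKO had the fewest tags and peaks and control library 5 the most, and its part was not tested. The mean was lower at 10 genes without the first and at 9 without the second.

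*Per3* was the only gene past the two-sided exact permutation test in coverage (exact p = 0.0238). The covered share of its window was 30.3, 25.1, 23.6, 19.0 and 20.3% in *Tip60* cKO and 29.6, 32.5, 35.8, 26.4 and 37.3% in control mice. Only *Tip60* cKO mouse 1 reached into the range of the control mice. The adjusted p over all genes was 0.199, in 18.7% of all genes the same test was passed with a lower mean in *Tip60* cKO, and in 0.757% with a higher one. With the same number of peaks per list *Per3* no longer passed (difference -2.59 percentage points, exact p = 0.341), whereas *Npas2* did (-14.6 percentage points, exact p = 0.0317). *Clock* was close to the threshold, with 41.2, 36.8, 35.7, 35.3 and 37.9% in *Tip60* cKO and 42.6, 42.2, 38.9, 39.3 and 39.4% in control mice (exact p = 0.0556). In all, 4 *Tip60* cKO mice lay below all control mice at *Clock*. With a window of 1 kb on either side *Clock* and *Npas2* passed as well (exact p = 0.0397 and 0.0238). The share of all genes that pass was not computed for this window or for the same number of peaks. These unadjusted values therefore have no background beside them.

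**Figure D2:**
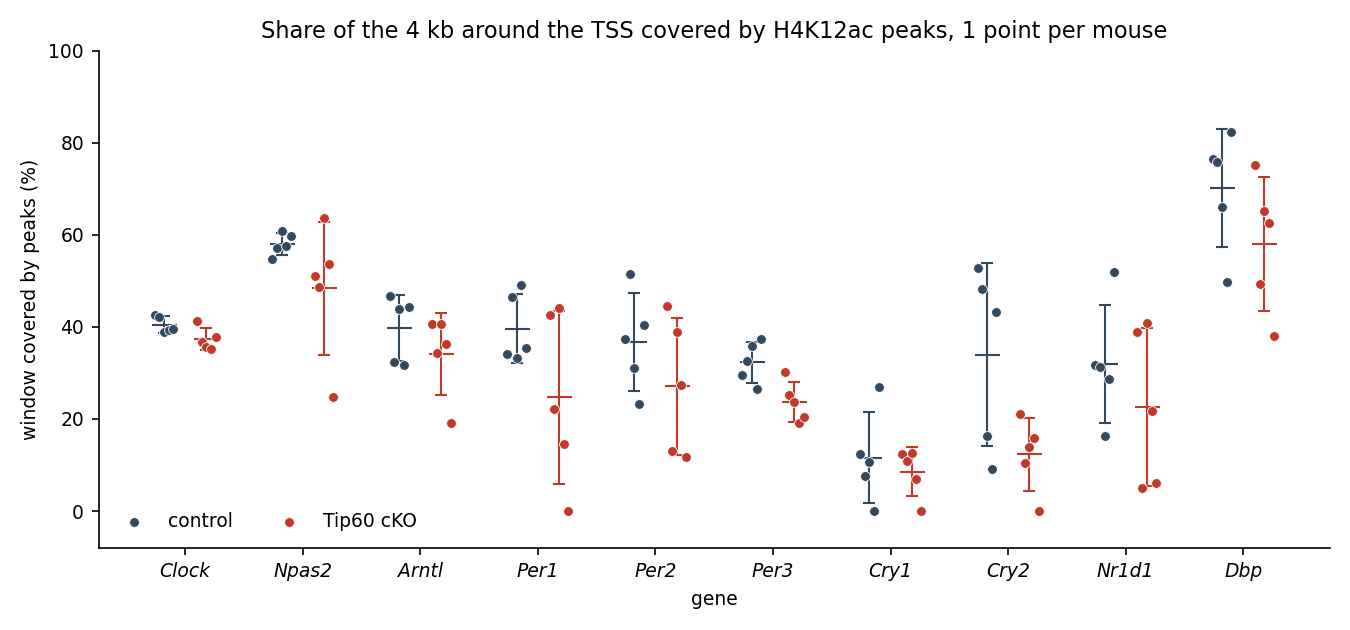
Share of the 4 kb window around the TSS covered by H4K12ac peaks, in percent, for each clock gene in 5 control and 5 *Tip60* cKO mice, with 1 point per mouse and the mean with SD. The *Tip60* cKO mean is lower at all 10 genes and the groups overlap at each, with *Cry2* spreading from 9.07 to 52.7% among the control mice.

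*Cry2* had the largest difference in coverage, with a mean of 12.3% ± 7.85 in *Tip60* cKO and 33.96% ± 19.9 in controls (SD, n = 5). Its covered share was 21.04, 10.5, 14.0, 15.9 and 0% in *Tip60* cKO and 52.7, 48.3, 16.3, 9.07 and 43.3% in control mice. At *Cry2* 3 control mice were far above all others and the other two were within the range of the *Tip60* cKO mice (exact permutation p = 0.0873). The strongest TSS peaks of *Cry2* lay at different places, with summits from 206 to 418 bp after the TSS in the 4 *Tip60* cKO lists with a peak and at -1199, 2134, 2608, -1016 and 240 bp in control lists 1 to 5. The background expected from the input at these peaks was 1.14 to 1.15 times the genome-wide level in *Tip60* cKO mice and 1.19 to 1.66 times in controls, and 1.255 times in control list 5, which peaked at a like place. The part of the input in this result was not tested. No clock gene had coverage values that did not overlap between genotypes, against 5.23% of all genes without overlap and lower in *Tip60* cKO.

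The shape of the acetylated region differed between genes. The summit of the strongest peak lay downstream of the TSS in all 10 lists at *Clock*, at a median of 367 bp, and at *Dbp*, at a median of 1559 bp, inside the gene. At *Npas2*, *Arntl* and *Per2* it lay downstream in 9 of 10 lists. *Cry1* had a peak in 8 lists, and its strongest summit lay upstream in 3 of 4 *Tip60* cKO lists (-501, -604 and -542 bp) and downstream in all 4 control lists (141 to 238 bp), so that its rank score compares different peaks. Summits were scattered at *Per1* (-613 to 3928 bp), *Cry2* (-1199 to 2608 bp) and *Nr1d1* (-1920 to 947 bp), where the score also draws on different peaks between lists. Around the start of *Per3* separate peaks upstream and downstream of the TSS were present in all 10 lists.

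**Figure D3:**
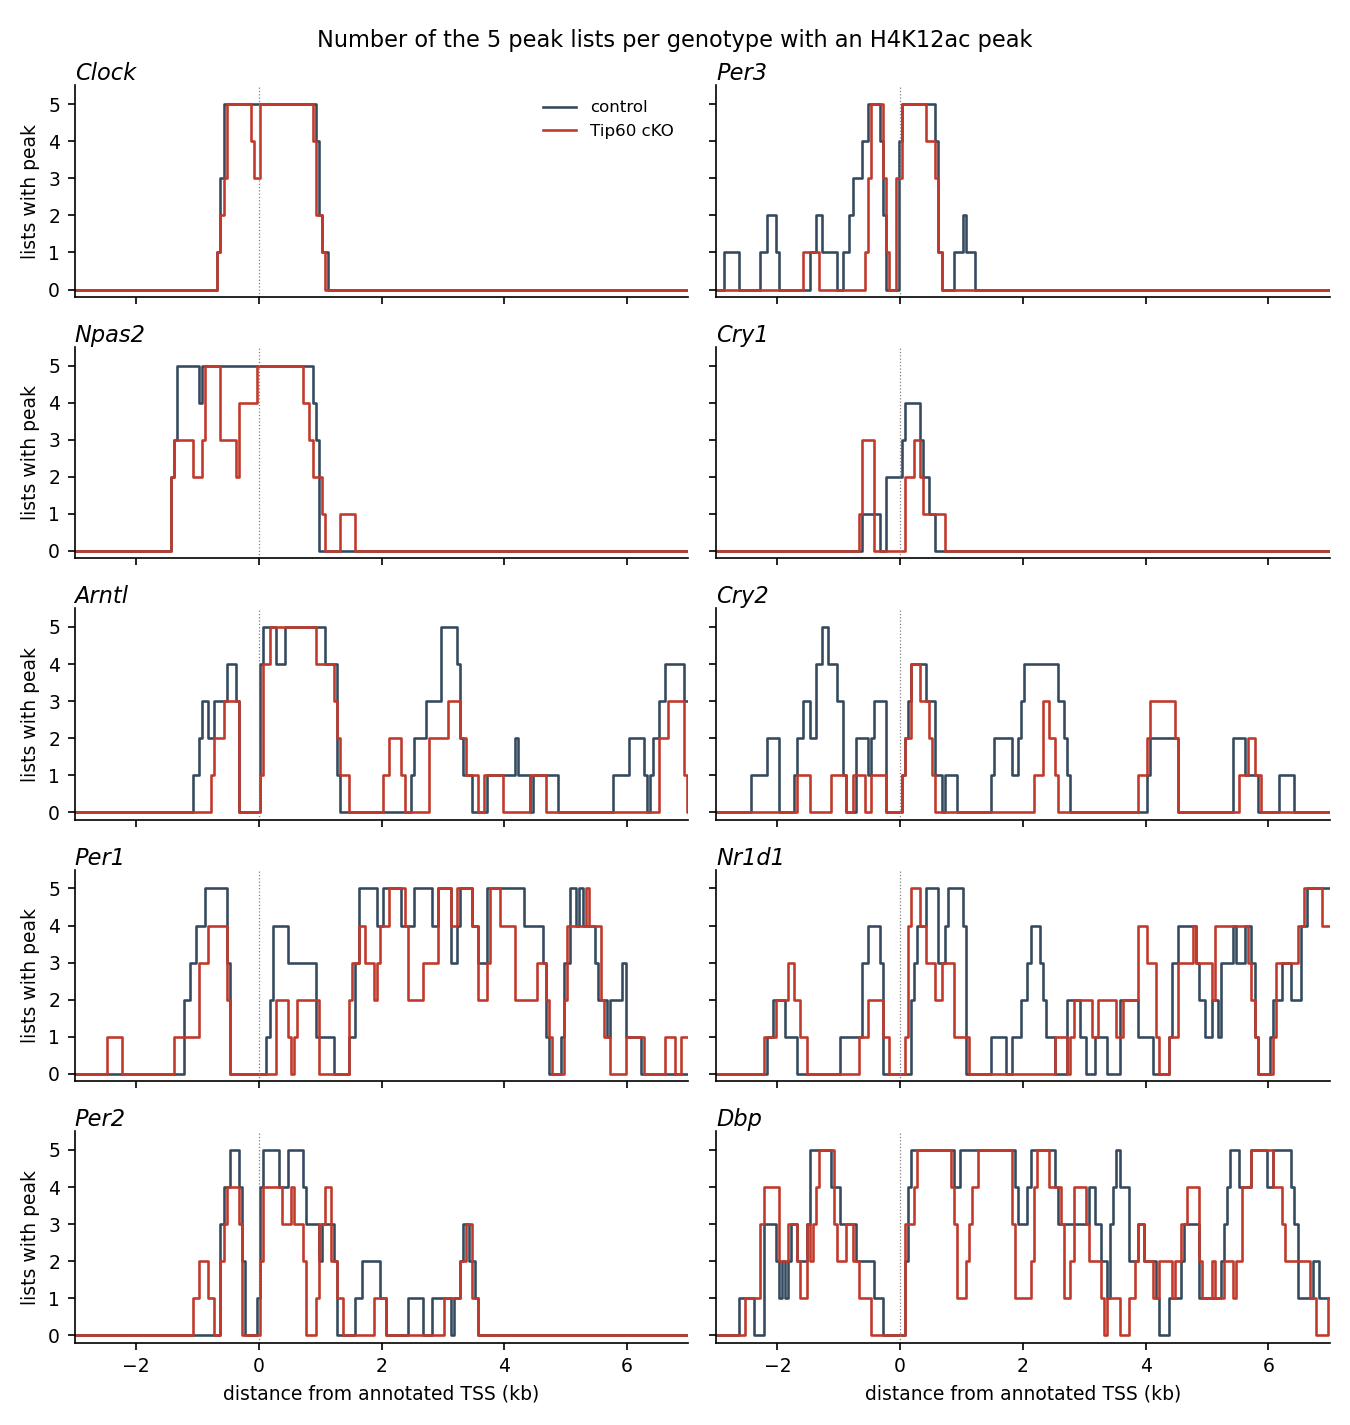
Number of the 5 peak lists of each genotype with an H4K12ac peak at each position from 3 kb before to 7 kb after the annotated TSS, per clock gene. *Clock* and *Npas2* have peaks on both sides of the TSS in all lists, with gaps in some lists, *Cry1* has at most 4 control and 3 *Tip60* cKO lists at any position, and *Dbp* and *Per1* are acetylated far into the gene.

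In the gene body, beyond the first 2 kb of the gene, acetylation took different forms among the clock genes. *Cry1* had no body peak in any list and *Per3* had 1 peak in 1 control list, so neither entered the test. *Clock* and *Npas2* had peaks over at most 2.79 and 3.60% of the body in any list. *Arntl* was covered to 13.6% ± 4.49 in *Tip60* cKO and 19.8% ± 4.32 in controls (SD, n = 5), in 23 to 47 and 39 to 52 separate peaks, and the ranges overlapped. *Per1*, *Nr1d1* and *Dbp*, which are short, were covered to 27.96, 43.0 and 54.5% on average in control mice. The 3′ end of *Nr1d1* overlaps *Thra* and that of *Dbp* overlaps *Sphk2*, both on the other strand, so peaks there cannot be given to 1 gene. *Per3* lies wholly within *Camta1* on the same strand, and this holds for its TSS peaks too.

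The body rank score was computed in the same way as that of the TSS, over genes longer than 4 kb. None of the 8 genes that entered passed limma at an adjusted p of 0.05, as 0.0624% of 12823 genes did, and *Cry2* alone had an unadjusted p below 0.05, as had 11.3% of all genes tested. *Cry2* scored 80.5, 91.4, 88.7, 86.0 and 85.6 in *Tip60* cKO and 75.9, 79.9, 82.0, 68.5 and 84.7 in control mice. Of the *Tip60* cKO mice 4 were above all control mice, and the difference was 8.23 ± 3.69 (SE; limma adjusted p = 0.438). The body rank score of *Per2* pointed the other way, with 76.4, 65.3, 61.9, 0 and 0 in *Tip60* cKO and 80.1, 80.5, 67.8, 80.7 and 68.1 in control mice. Both lists without a body peak at *Per2* were from lane 8, and the difference was -74.4 within this lane and -8.29 within lane 7, against -34.7 in all mice (limma adjusted p = 0.445). Of the 8 genes 4 had a lower and 4 a higher mean, with a median of -0.94 against -0.59 over all genes.

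Single regions were compared next. Peaks of the 10 lists were merged into 144701 consensus regions found in 2 or more lists, of which 138 lay in a clock gene or within 2 kb before its TSS. *Arntl* held 54 of them, *Npas2* and *Cry2* 22 each, and *Cry1* and *Dbp* 2 each. The rank score of the strongest peak in the region had a lower mean in *Tip60* cKO in 87 regions and a higher one in 51 (63.0% lower, against 56.9% of all regions). None passed limma at an adjusted p of 0.05, against 0.219% of all regions, and at an unadjusted p below 0.05 there were 7 with a lower and 7 with a higher mean, against 7.33 and 3.72% of all regions. In 2 of the 138 regions the genotypes did not overlap, both higher in *Tip60* cKO and both in *Cry2*.

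The region with the largest difference among the 138 lay in *Cry2* at chr2:92422625-92425136, from 8907 to 11418 bp after the TSS, and overlaps a coding exon. Its rank score was 80.1, 94.2, 92.0, 90.0 and 89.7 in *Tip60* cKO and 65.8, 51.0, 0, 0 and 38.4 in control mice. Every *Tip60* cKO mouse was above every control mouse, in either lane (differences of 49.9 in lane 7 and 70.6 in lane 8). The difference of 58.2 ± 15.8 (SE) had an unadjusted limma p of 0.000226 and an adjusted p of 0.0656. Fold enrichment was 4.01 to 5.37 in *Tip60* cKO and 2.44 to 3.44 in the 3 control mice with a peak. Peak height per 10000000 tags was 5.39 to 7.67 in *Tip60* cKO and 3.96 to 6.18 in these control mice, which overlapped. The background expected from the input was 1.08 to 1.09 times the genome-wide level in *Tip60* cKO and 1.29 to 1.63 times in the 3 control lists with a peak, whose peaks lay at separate places in the region. With ranking by height among the peaks called against the input, where both control lists without a peak stayed at 0, the difference was 50.0 (limma adjusted p = 0.190). The part of the input in this difference was not tested.

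The middle of this *Cry2* region is shown because it holds the letters of 2 E-boxes, in capitals, in 200 bases around the median summit, 10137 bp after the TSS and in an intron (chr2:92423806-92424005, minus strand, 5′ to 3′).
*Cry2* region: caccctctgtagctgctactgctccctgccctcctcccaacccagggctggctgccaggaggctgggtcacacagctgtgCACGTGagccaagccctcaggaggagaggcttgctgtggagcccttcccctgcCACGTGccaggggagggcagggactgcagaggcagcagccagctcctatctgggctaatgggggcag
Windows of 200 bases around the summits of all 144701 consensus regions held at least 1 such E-box in 3.41% of cases and at least 2 in 0.124%. Of the 138 clock gene regions 6 held at least 1, in *Npas2*, *Arntl*, *Per2*, *Cry2* and *Nr1d1*, and only this one held 2.

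*Cry2* had further regions at which the genotypes stood apart. At chr2:92412668-92414170, from 19873 to 21375 bp after the TSS and over a coding exon, the score was 77.8, 80.3, 71.8, 61.7 and 81.4 in *Tip60* cKO and 43.1, 0, 0, 56.9 and 0 in control mice, again without overlap (difference 54.6 ± 21.6, SE; limma adjusted p = 0.283). Its input background was 0.998 to 1.01 times the genome-wide level in *Tip60* cKO mice and 1.54 to 1.67 times in the 2 control mice with a peak, whose heights per 10000000 tags (4.73 to 5.11) lay within those of the *Tip60* cKO mice (3.95 to 5.25). At chr2:92415661-92416363 only *Tip60* cKO lists had a peak, 4 of 5 (limma adjusted p = 0.287). The reverse, a peak in 4 control lists only, was found at an intronic region of *Clock* (chr5:76228242-76228642, limma adjusted p = 0.373) and one of *Nr1d1* (chr11:98772810-98773530, limma adjusted p = 0.396). Fold enrichment was 3.21 to 4.06 in the lists with a peak at this *Cry2* region, 2.71 to 3.65 at that of *Clock* and 2.90 to 3.59 at that of *Nr1d1*. How often all regions have a peak in 4 lists of 1 genotype only was not counted. Upstream of *Cry2*, at chr2:92434896-92435780, the order was the opposite of that in its body regions. Scores were 63.7, 51.6, 0, 0 and 0 in *Tip60* cKO and 87.9, 63.2, 52.1, 56.8 and 81.7 in control mice (limma adjusted p = 0.428). At the upstream region 1 *Tip60* cKO mouse was above 3 control mice. The input background was the opposite there too, with a mean of 1.60 in the *Tip60* cKO and 1.24 in the control lists with a peak, at heights per 10000000 tags of 5.40 and 5.56 on average. The part of the input in these regions was not tested. Along the whole gene 11 regions had a higher and 11 a lower mean in *Tip60* cKO. The body of *Cry2* overlaps the transcript *D930015M05Rik* on the other strand.

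**Figure D4:**
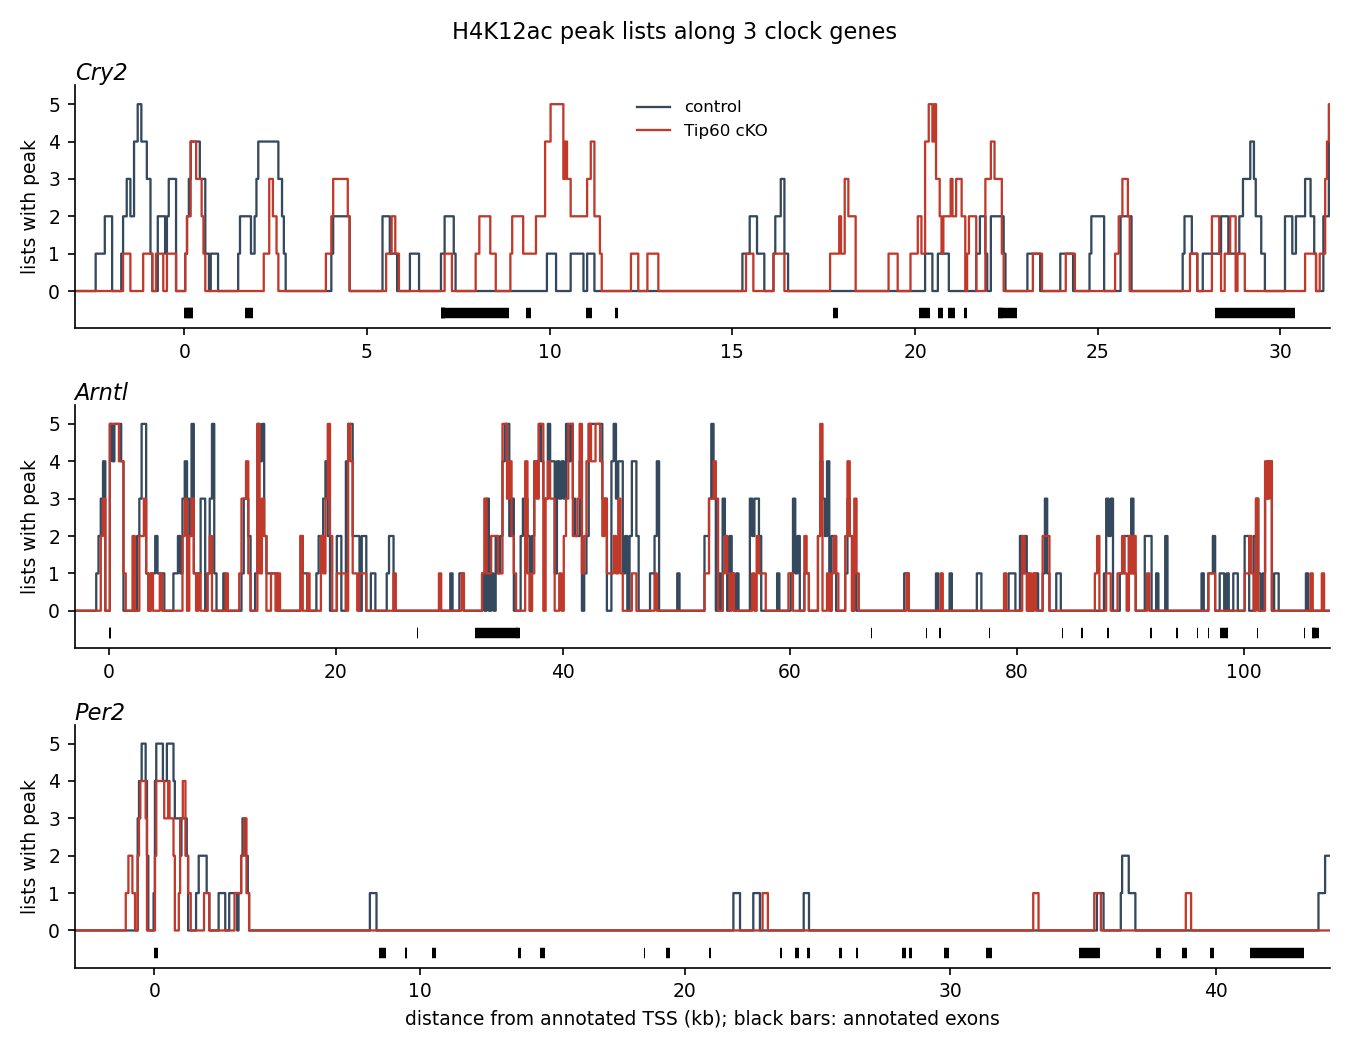
Number of the 5 peak lists of each genotype with an H4K12ac peak along *Cry2*, *Arntl* and *Per2*, by distance from the annotated TSS in kb, with annotated exons as black bars. In *Cry2* all 5 *Tip60* cKO lists meet near 10 kb and near 20 kb, where at most 2 control lists do, while all 5 control lists meet before the TSS.

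*Dbp* lay almost wholly in 1 region of 7474 bp (chr7:45705155-45712628) that was among the strongest in all 10 lists, with scores of 94.9 to 99.9 in *Tip60* cKO and 98.0 to 99.7 in controls. Its height per 10000000 tags was 9.98 on average in *Tip60* cKO and 12.9 in controls, with overlapping ranges. A second region upstream of *Dbp* (chr7:45702462-45704822) scored 95.2, 89.2, 96.5, 89.8 and 91.3 in *Tip60* cKO and 86.0, 69.6, 93.1, 68.2 and 71.0 in control mice. Of the control mice 4 were below all *Tip60* cKO mice there, and the difference was 14.9 ± 4.87 (SE; limma adjusted p = 0.161). The input background was 0.998 to 1.09 times the genome-wide level in *Tip60* cKO and 1.21 to 1.74 times in control libraries. With ranking by height the difference of this region was 2.41 (limma adjusted p = 0.851). The part of the input in the difference of this region was not tested.

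The region that holds the main RefSeq start of *Per1* (chr11:69096676-69099993) scored 98.1, 93.7, 99.4, 92.6 and 94.2 in *Tip60* cKO and 98.4, 97.6, 83.7, 88.0 and 73.9 in control mice. Of the control mice 3 were below all *Tip60* cKO mice and the other two within their range (difference 7.26 ± 3.41, SE; limma adjusted p = 0.408), and without control mouse 5 the difference was 3.66. The input background of this region was higher in control libraries (1.20 to 1.88 times the genome-wide level) than in *Tip60* cKO (0.999 to 1.12 times). With ranking by height the difference of this region was -0.70. The part of the input in this difference was not tested. The strongest regions of *Clock* and *Npas2* contain their TSSs and differed by -0.40 and -0.28. The strongest regions of *Arntl*, *Per2* and *Per3* differed by -2.93, -6.52 and 3.66, and each of these 5 regions had a peak in all 10 lists. Mean height per 10000000 tags was lower in *Tip60* cKO at all 5, with overlapping ranges. It was 8.28 against 10.2 in controls at *Clock*, 9.80 against 11.5 at *Npas2* and 7.04 against 9.39 at *Arntl*. It was 6.41 against 9.84 at *Per2* and 7.53 against 9.39 at *Per3*. The input background at *Per3* was 1.07 in *Tip60* cKO and 1.32 in controls on average. The part of the input in these 5 regions was not tested. A second *Per1* region, at chr11:69100153-69101513, differed by 1.19. The strongest region of *Nr1d1* (chr11:98767876-98769292) lay at its 3′ end, where *Thra* overlaps, and scored 68.5 to 94.4 in *Tip60* cKO mice and 83.5 to 92.8 in controls (limma adjusted p = 0.478). That of *Cry1* (chr10:85184349-85185285) contained its TSS and was found in 3 *Tip60* cKO and 4 control lists (limma adjusted p = 0.757).

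*Arntl* held the most regions of the 10 clock genes. Of its 54 regions 11 had a peak in all lists, and they were spread from the TSS to 63587 bp downstream. In *Arntl* 3 regions had an unadjusted limma p below 0.05 without a call. The intronic region at chr7:113213836-113215272 scored 45.8, 61.1, 75.2, 64.2 and 71.9 in *Tip60* cKO and 85.8, 73.2, 88.1, 79.4 and 83.6 in control mice (limma adjusted p = 0.430). One *Tip60* cKO mouse was above the lowest control mouse. At chr7:113246859-113249320 the order was the opposite, as values were 82.7 to 89.8 in *Tip60* cKO mice and 59.4 to 85.7 in controls (limma adjusted p = 0.436), at an input background of 1.07 and 1.31 times the genome-wide level on average. The third, at chr7:113216157-113217047, had a peak in 2 *Tip60* cKO and 5 control lists, with heights per 10000000 tags of 5.16 to 5.43 and 3.96 to 6.51. At both regions with a lower mean the input background was higher in the *Tip60* cKO lists with a peak. It was 1.75 to 2.03 against 1.08 to 1.24 in the third and 1.28 against 1.18 on average in the first. Heights per 10000000 tags in the first were 5.06 on average in *Tip60* cKO (4.32 to 6.39) and 6.55 in controls (5.47 to 7.89). The part of the input in these values was not tested.

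A list of 20 further clock genes was read in the same way, covering paralogues, nuclear receptors, other repressors, D-box factors, and kinases and ubiquitin ligases of the clock. Of these, 19 entered the TSS test and none passed limma at an adjusted p of 0.05, while 2 had an unadjusted p below 0.05, against 12.6% of all genes. The TSS rank score had a lower mean in *Tip60* cKO at 13 and a higher one at 6 of the 19, with a median of -1.80, and coverage a lower mean at 18, against 55.6 and 81.0% of all genes with a lower mean in these measures. *Usp2*, a deubiquitinase of clock proteins, and *Noct*, the nocturnin gene, did not overlap in coverage, as 5.23% of all genes did not with a lower mean in *Tip60* cKO. Coverage of *Usp2* was 6.07 to 10.2% in *Tip60* cKO and 11.9 to 15.1% in controls, and that of *Noct* 27.2 to 35.6% and 37.8 to 64.6% (exact permutation p = 0.00794 for each, the smallest that 5 against 5 mice allow). The adjusted p over all genes was 0.147 for both, and neither passed limma in TSS rank score (differences of -2.64 and -0.04).

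**Figure D5:**
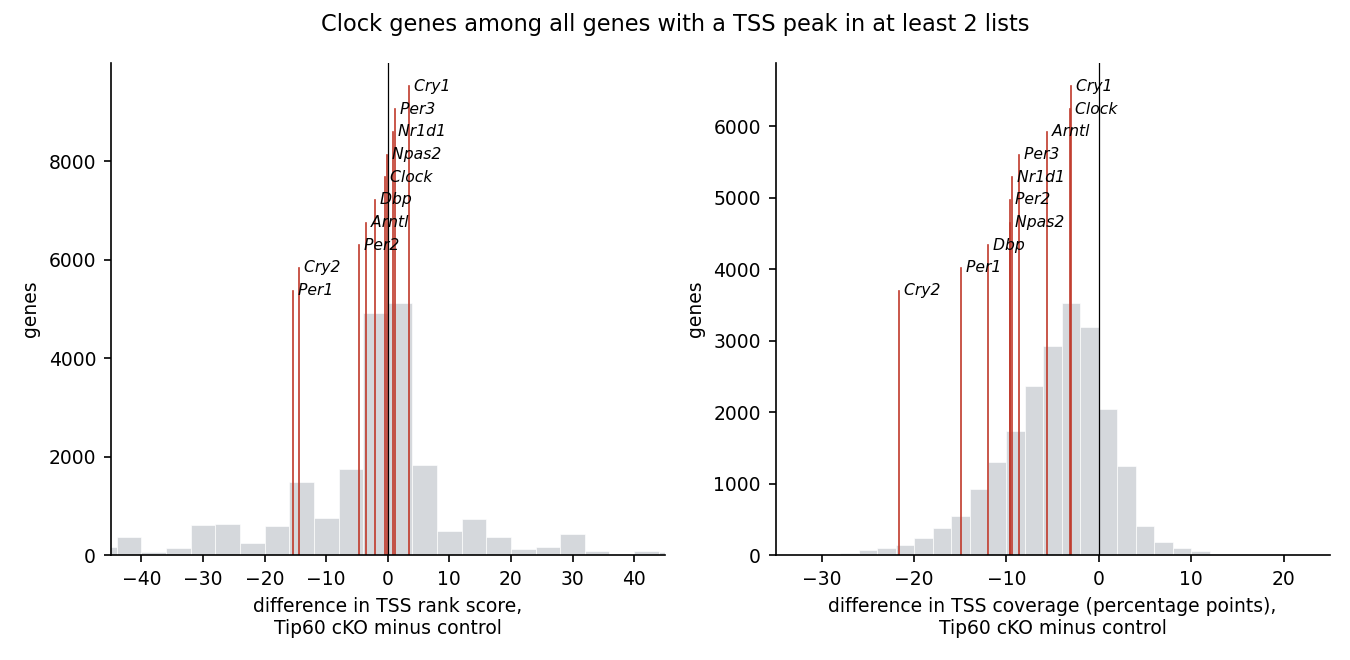
Difference of the group means (*Tip60* cKO minus control) in TSS rank score and in TSS coverage (percentage points) for all 21672 genes with a TSS peak in at least 2 lists (grey bars, number of genes) and for the 10 clock genes (red lines). In rank score 8 clock genes lie within 5 units of 0, with *Per1* and *Cry2* near -15, and in coverage all 10 lie below 0.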

How the data were processed

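H4K12ac ChIP-Seq peak lists of sorted hippocampal neuronal nuclei from 5 *Tip60* cKO and 5 control mice were used. Each library was taken as 1 mouse, and there was 1 pooled input per genotype. The authors mapped reads to mm10, removed duplicates with SAMtools and called peaks in each library against the input of its genotype with MACS 2.1.0.20140616 at a q-value of 0.1, per the file headers. The deposited lists give for each peak a pileup (the height in tags, a signal that is not scaled for depth), a fold enrichment (a linear ratio of height to local background) and p- and q-values as −log10. Because the input differs between genotypes, fold enrichment and the number of peaks depend on it, and no counts of reads per region were used here. Libraries held 22864189 to 37923809 tags, and a peak that is absent may be below the detection of a list. The input background of a peak was recovered from its pileup and fold enrichment and divided by the genome-wide level of the library.

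Peaks were assigned to genes of GENCODE M21 by the 5′ end of the gene record. For each library the strongest fold enrichment within 2 kb of the TSS, in the body from 2 kb onwards (genes over 4 kb) and in consensus regions was converted to a rank from 0 to 100 over all genes or regions, with 0 for no peak. Features found in 2 or more lists were tested with limma 3.58.1 (R 4.3.3, robust empirical Bayes with a trend of the variance over the mean) over all features, with Benjamini-Hochberg adjustment. TSS coverage and fold enrichment relative to the library median were compared for each gene by a two-sided exact permutation test over the 252 assignments of 5 against 5 mice, with the same adjustment over all genes. The methods of the study test read counts with another tool, so the tests here are not those of the study. Each library was taken as a separate mouse, as the labels number 5 replicates per genotype. Standard errors are those of the limma difference, whose variance is moderated toward that of all features. Promoter and region sequences were read from RefSeq (GRCm38.p6). limma was tested on simulated data. Other steps used scipy 1.17.1, pandas 2.3.3 and numpy 2.4.6 in Python 3.11.15.

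The clock genes and the list of further clock genes were chosen with earlier results of these data known. The regions named were the one with the highest control mean of each clock gene and those past the adjusted threshold or without overlap between genotypes. Regions outside this rule (in *Arntl*, upstream of *Dbp*, a second one in *Per1* and one each in *Cry2*, *Clock* and *Nr1d1*) were chosen after their values were seen. The alternatives were ranking by pileup, a q-value below 0.01, the same number of strongest peaks (64245) in each list, a window of 1 kb, the TSS of any transcript, the lane as covariate or each lane alone, a replicate block, another limma prior, a minimum of 5 lists and the omission of each mouse. Values of some genes of the marker and further clock gene lists are not reported here.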

Additional observations from a re-analysis of the deposited data

Results flagged for a closer look

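In 73 groups of 5 mice tested for a single outlying mouse (Dixon's test at 95%), 10 had one. Chance flags about 1 in 20 for continuous values, but this rate does not apply to 5 of the 10, in which a list without a peak scored 0 and any TSS peak at least 65.2, or a single list had a peak. *Tip60* cKO mouse 5, the library with the fewest tags and peaks, was the outlying mouse in 5 of them. It had no TSS peak at *Per1*, *Cry1* and *Cry2* (rank score 0 at each, against 84.8 to 94.8, 74.3 to 80.6 and 69.8 to 86.7 in the other *Tip60* cKO mice). At *Arntl* its TSS rank score was 82.3 (87.6 to 89.1 in the others) and its relative fold enrichment -0.14 (0.18 to 0.22 in the others, log2). Mouse 1 of *Tip60* cKO was outlying at *Nr1d1*, with a TSS rank score of 84.2 (72.7 to 75.5 in the others), and in the body of *Arntl*, with 88.6 (93.3 to 94.4 in the others). Control mouse 4 had no TSS peak at *Cry1* (rank score 0, against 68.0 to 78.2). Control mouse 1 had a body rank score of 80.4 at *Nr1d1* (88.6 to 91.6 in the others), and it alone had a body peak at *Per3* (66.6, others at 0). The part of depth in these values was not tested.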

How the results depend on the processing

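No clock gene or clock gene region passed limma at an adjusted p of 0.05 under any alternative run in TSS rank score, body rank score or region rank score. In TSS coverage 1 gene passed the exact permutation test at an unadjusted p of 0.05, 3 with a window of 1 kb and 1 to 3 when each mouse was left out (3 without control mouse 4, 2 without *Tip60* cKO mouse 1 or 3). Of all 21672 genes 18.7% passed with a lower and 0.757% with a higher mean in *Tip60* cKO in the main setting. In relative fold enrichment 0 passed, and 0 to 1 when each mouse was left out (1 without *Tip60* cKO mouse 1 or control mouse 4). In the main setting 15.5% of 13004 genes passed this test. For both measures the share of all genes was not computed in the other settings.

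Ranking by pileup turned the sign of the TSS difference at *Clock* (0.347), *Nr1d1* (-4.42) and *Per3* (-1.67), of the body difference at *Nr1d1* (3.77) and *Per1* (-1.14), and of the strongest regions of *Clock* (0.176), *Nr1d1* (3.36), *Per3* (-1.05) and *Per1* (-0.703), and of a second *Per1* region (-3.56). The TSS of any transcript turned it at *Cry2* (0.0157), *Nr1d1* (-1.20) and *Per1* (4.43). Relative fold enrichment of *Per3*, close to 0, was 0.000938 with a q-value below 0.01, 0.0314 with the same number of peaks and 0.00432 with a window of 1 kb. The causes were not tested.

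Leaving out each mouse in turn moved the TSS difference across 0 at *Clock* (-2.45 to 0.685), *Npas2* (-1.05 to 0.969), *Per1* (-21.6 to 2.12), *Per3* (-1.18 to 2.87), *Cry1* (-11.2 to 18.8), *Cry2* (-21.0 to 0.686) and *Nr1d1* (-1.25 to 2.25), body *Dbp* (-2.60 to 3.72) and coverage of *Cry1* (-5.92 to 0.827). The same held for the strongest regions of *Clock* (-1.51 to 0.136), *Npas2* (-0.698 to 0.223) and *Per3* (-0.708 to 5.39), the second *Per1* region (-3.79 to 3.63), and relative fold enrichment of *Npas2* (-0.144 to 0.0375), *Nr1d1* (-0.0627 to 0.118) and *Per3* (-0.103 to 0.0717). At the *Cry2* region near 10 kb the range was 50.4 to 66.9.

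Whether replicate numbers pair the mice is not known. Correlations of same-numbered deviations ran from -0.0375 to 0.0552, and such values cannot show whether mice were paired. The best matching control mouse was number 1, 2, 1, 4 and 4 for *Tip60* cKO mice 1 to 5. With the replicate block 0 clock genes or regions passed in the 3 limma tests. Over all features, genes called at the TSS went from 86 to 6 with the block, 1 with pileup and 8 to 74 without each mouse. Genes called in the body went from 8 to 0 with the block, 0 to 16 without each mouse and 24 with another limma prior. Regions called went from 317 to 380 with the block and 1 to 812 over the other alternatives.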
